A study of Mus musculus with 8 samples.

Results

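The S100 proteins, the annexins and galectin 3 were followed in mouse cumulus cells, the somatic cells around the oocyte, from before the ovulatory stimulus to after ovulation. The set was defined as every probe set whose platform gene symbol is exactly S100a4, S100a6, S100a10, S100a11, Anxa1, Anxa2, Anxa5 or Lgals3. It found 10 of 12422 probe sets on the array, for 7 of the 8 genes. S100a11 gave no values, because its probe set also carries the symbols of pseudogenes. S100a10 had 2 probe sets, Anxa1 had 3 and the other 5 genes had 1 each. Earlier results of these arrays were known when the genes were grouped by family name, and which values weighed in is not recorded. The time course is therefore taken as what chose them, and it is given as values with no test.

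The cumulus cells came from female C57Bl/6 mice of 3 to 4 weeks, either wild type (WT) or Ptger2-/- (EP2KO). Ptger2 encodes EP2, a receptor for prostaglandin E2. All mice received 5 IU of PMSG, an FSH-like hormone, and all but the 0 h groups received 5 IU of hCG, which acts like LH, 48 h later. Cells were taken from each genotype without hCG (0 h) and at 3, 9 and 14 h after it. Each of these 8 groups was measured on 1 Affymetrix mouse genome array, so no group has a replicate. At 0, 3 and 9 h the cells were stripped by hand from complexes released out of punctured follicles. At 14 h they came from ovulated complexes in the oviduct after 0.1% hyaluronidase, so ovulation, the site of collection and the enzyme cannot be told apart. The labels give no number of animals per array, and Ptger2 was deleted in the whole animal as far as they say. Values are log2 signals, on which a difference of 1 is a 2-fold difference.

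S100 proteins are small calcium-binding proteins that work as pairs and bind target proteins when calcium rises. Annexins bind acidic membrane lipids in the presence of calcium. The 2 families meet in fixed partnerships: S100A10, which has lost calcium binding, holds annexin A2 in a complex at the plasma membrane that brings plasminogen and its activator together, and S100A11 binds annexin A1. Galectin 3 is a lectin that binds galactose-containing sugars and crosslinks glycoproteins at the cell surface and in the matrix.

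The Ptger2 probe set read 4.95, 5.97, 5.37 and 5.33 in WT at 0, 3, 9 and 14 h, and 4.57, 4.24, 4.69 and 4.51 in EP2KO, so every EP2KO array was below every WT array. The signal was low throughout, and the probes were not checked against the deleted part of the gene. Array medians lay between 7.79 and 7.89. Of 17 cumulus and granulosa markers 14 were measured, of which 7 fell and 3 rose at 14 h, where 15.2% of all probe sets fell and 13.5% rose. The inhibin subunit gene Inha read between 12.34 and 14.37 and fell by 1.77 at 14 h, Inhbb fell by 5.42 and Hsd17b1 fell by 3.62, while the gap junction gene Gja1 stayed between 13.28 and 13.57. The 3' minus 5' difference of the Gapdh control, which grows as the RNA or its copies get shorter, reached 2.87 (WT) and 2.82 (EP2KO) at 14 h, and lay between 0.80 and 1.86 on the earlier arrays. That of Actb read 1.61 (WT) and 1.37 (EP2KO) at 14 h and 0.69 to 1.54 before. The part of RNA quality in the 14 h values below was not tested.

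Promoter sequences are shown for 4 genes that stood far above 0 h after hCG and for S100a4, whose gene lies 2 protein-coding genes from S100a6 and did not share its course. They are RefSeq sequences of mouse build GRCm38.p6, from 250 bases before to 50 after the start of the gene, 5' to 3' on the gene's strand. An entry was held for 7 of the 8 genes, and S100a10 is named only. Capitals mark matches, searched on both strands, to 6 motifs, none of which contains another. The AP-1 site was searched as TGANTCA and a part of the cAMP response element as TGACG. The GC box was searched as GGGCGG and the TATA box as TATAAA. The RUNX site was searched as TGTGGT and the E-box as CACGTG.
S100a6, chr3:90612644-90612943, plus strand: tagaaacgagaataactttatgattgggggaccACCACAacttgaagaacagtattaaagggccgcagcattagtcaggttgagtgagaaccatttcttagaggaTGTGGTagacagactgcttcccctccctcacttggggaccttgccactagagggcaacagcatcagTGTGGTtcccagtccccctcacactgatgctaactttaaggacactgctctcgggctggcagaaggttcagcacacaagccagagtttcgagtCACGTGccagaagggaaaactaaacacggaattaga
S100a4, chr3:90603520-90603819, plus strand: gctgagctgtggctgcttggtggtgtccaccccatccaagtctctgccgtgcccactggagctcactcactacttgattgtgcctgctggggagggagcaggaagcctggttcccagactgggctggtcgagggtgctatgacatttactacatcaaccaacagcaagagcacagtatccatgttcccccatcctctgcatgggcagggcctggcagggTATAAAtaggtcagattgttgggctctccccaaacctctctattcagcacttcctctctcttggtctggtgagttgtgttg
Anxa1, chr19:20390622-20390921, minus strand: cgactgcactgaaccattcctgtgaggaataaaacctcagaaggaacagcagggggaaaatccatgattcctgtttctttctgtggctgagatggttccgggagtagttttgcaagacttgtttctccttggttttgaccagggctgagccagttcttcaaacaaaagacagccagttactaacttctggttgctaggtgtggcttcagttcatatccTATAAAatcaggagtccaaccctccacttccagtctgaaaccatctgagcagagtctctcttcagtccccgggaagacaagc
Anxa2, chr9:69453433-69453732, plus strand: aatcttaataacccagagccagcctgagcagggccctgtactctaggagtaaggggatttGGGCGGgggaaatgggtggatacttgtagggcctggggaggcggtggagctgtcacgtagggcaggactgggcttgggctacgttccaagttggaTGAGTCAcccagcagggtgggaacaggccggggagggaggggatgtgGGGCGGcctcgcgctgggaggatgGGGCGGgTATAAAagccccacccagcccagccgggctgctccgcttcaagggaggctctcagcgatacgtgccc
Lgals3, chr14:47373610-47373909, plus strand: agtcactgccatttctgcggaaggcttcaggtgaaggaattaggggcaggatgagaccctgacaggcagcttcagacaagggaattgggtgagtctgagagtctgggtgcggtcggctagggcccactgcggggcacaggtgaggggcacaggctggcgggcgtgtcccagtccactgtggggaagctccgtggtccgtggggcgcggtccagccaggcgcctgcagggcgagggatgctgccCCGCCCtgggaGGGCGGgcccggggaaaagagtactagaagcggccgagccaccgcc

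No motif was common to the 5 windows. S100a6 held 3 matches to TGTGGT and 1 to CACGTG, and no TATAAA. The neighbouring S100a4 window held only TATAAA, whose first base is at −31 from the start of the gene. Anxa1 likewise held only TATAAA, at −32. Anxa2 held 3 of the motifs, with TGAGTCA at −95, 3 matches to GGGCGG and TATAAA at −17. Lgals3 held 2 matches to GGGCGG and 67.0% G and C, against 49.3% in S100a6 and a median of 52.7% over all promoters. Of 32851 promoter windows in the table, 7.81% held TGANTCA, 20.8% TGACG, 35.7% GGGCGG, 13.6% TATAAA, 16.8% TGTGGT and 7.15% CACGTG. Of the 7 windows of the set, 2, 1, 3, 3, 1 and 2 did so in the same order, where S100a11 supplied the only TGACG. The matches are letters in these windows and say nothing of binding.

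Among the S100 genes, S100a6 (calcyclin) had the largest change of the set. In WT it read 6.81 at 0 h, 8.68 at 3 h, 12.09 at 9 h and 11.89 at 14 h. In EP2KO the values were 6.93, 8.59, 11.90 and 12.40. The 0 h arrays were the lowest and both late times stood above 3 h by over 3 log2 units, while the 9 h and 14 h arrays overlapped. Averaged over both genotypes, S100a6 was 3.40-fold above 0 h at 3 h, 34.9-fold at 9 h and 38.7-fold at 14 h. Most of that difference lay between 3 and 9 h, at 3.41 in WT and 3.31 in EP2KO.

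S100a10, the partner of annexin A2, followed an earlier course, which turned back by 14 h in WT. By its brighter probe set the WT series was 9.36, 11.57, 12.51 and 11.59, and the EP2KO series 9.56, 10.85, 12.30 and 12.24. Both genotypes were highest at 9 h, and no time overlapped its neighbour in the order of levels. At 9 h the gene stood 8.88-fold above 0 h in WT and 6.68-fold in EP2KO. From 9 to 14 h the WT signal was lower by a log2 difference of −0.92, against −0.06 in EP2KO. The dimmer probe set did not show this course. It read between 7.98 and 8.61 on all 8 arrays, and its 14 h and 0 h arrays overlapped, so the change of S100a10 rests on 1 of its 2 probe sets. The name of the dimmer one carries the mark r, which Affymetrix gives to probe sets designed under relaxed rules.

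S100a4, which binds non-muscle myosin and lies near S100a6 in the genome, was on no array 2-fold from the 0 h array of its genotype. The WT arrays read 7.25, 6.80, 7.16 and 7.24, and the EP2KO arrays 6.91, 6.61, 7.26 and 7.85. Both 3 h arrays were the lowest, 9 h overlapped both 0 h and 14 h, and the EP2KO array of 14 h was the highest.

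**Figure D1:**
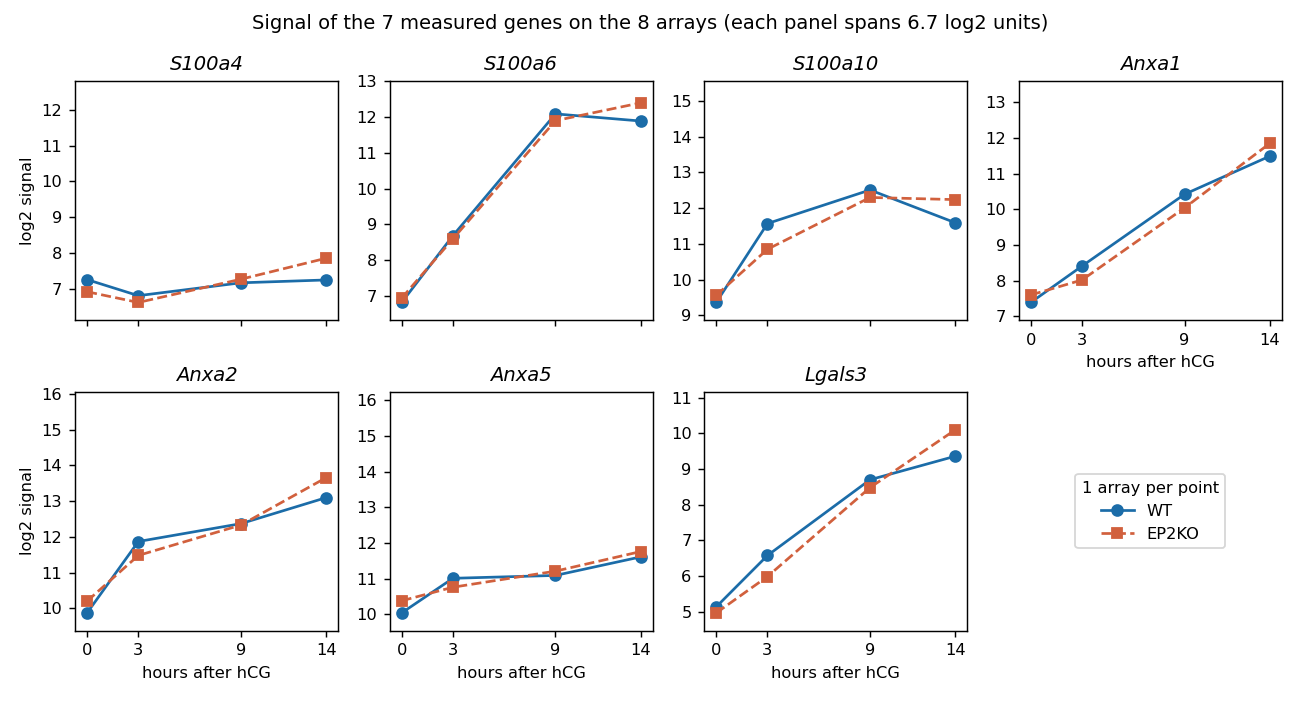
Log2 signal (vertical) against hours after hCG (horizontal) for the 7 measured genes, each by its brightest probe set, with 1 array per point in WT (circles, solid) and EP2KO (squares, dashed). Every panel spans the same number of log2 units: S100a6 goes from 6.81 to 12.40, while S100a4 stays between 6.61 and 7.85.

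The 3 annexins were all above 0 h at 3 h and highest at 14 h in both genotypes. They differed in the share of the 14 h difference that was present at 3 h. Anxa1, which is induced by glucocorticoids and restrains inflammation, read 7.39, 8.41, 10.42 and 11.49 in WT by its brightest probe set. In EP2KO it read 7.60, 8.02, 10.04 and 11.85. The 4 times were in order without overlap, and the signal at 14 h was 17.1-fold above 0 h in WT and 19.0-fold in EP2KO. Of this log2 difference only 24.9% in WT and 9.88% in EP2KO was present at 3 h. The second Anxa1 probe set ran the same way, from 7.62 in both genotypes at 0 h to 11.34 and 11.81 at 14 h. The other one was dim, at 3.89 to 6.67, and had a smaller change of 1.5 in WT and 2.67 in EP2KO. The names of the first 2 carry the mark f, for probes shared within a sequence family, and that of the dim one the mark i, for an incomplete probe set.

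Anxa2, which binds S100A10 and the inner face of the plasma membrane, had the largest change of the 3 annexins at 3 h. Its WT arrays gave 9.87, 11.87, 12.37 and 13.10, and its EP2KO arrays 10.20, 11.48, 12.33 and 13.66. The times were again in order without overlap. The 3 h array was 4.00-fold above 0 h in WT and 2.43-fold in EP2KO, and the 14 h array 9.38-fold and 11-fold. Of the 14 h difference, 61.9% was present at 3 h in WT and 37.0% in EP2KO.

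Anxa5, which binds exposed phosphatidylserine, had the smallest change of the 3 annexins in the set. The WT signals were 10.04, 11.01, 11.09 and 11.61, and those of EP2KO 10.38, 10.76, 11.21 and 11.76. The times did not overlap, and 14 h stood 2.97-fold above 0 h in WT and 2.60-fold in EP2KO. In WT the step from 0 to 3 h was 0.97 and the step from 3 to 9 h 0.08, while in EP2KO they were 0.38 and 0.45.

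Lgals3, galectin 3, had the second largest change of the set at 14 h. WT arrays gave 5.14, 6.58, 8.70 and 9.36, and EP2KO arrays 4.97, 5.99, 8.48 and 10.10. The times were in order without overlap. At 9 h it stood 11.8-fold and 11.4-fold above 0 h in WT and EP2KO, and at 14 h 18.6-fold and 35.0-fold. Detection calls were not used here, so whether the 0 h signal stood above background was not tested.

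In all, 4 of the 7 genes were at least 2-fold above 0 h in both genotypes at 3 h, 5 at 9 h and 6 at 14 h. Of all probe sets, 2.6%, 2.48% and 3.45% passed the same limit; the genes were chosen with these changes known, so nothing is read from the contrast. At 3 h the gene nearest above the limit was Lgals3, at 1.44 in WT and 1.02 in EP2KO, and Anxa1 was outside, at 1.02 and 0.42. At 9 h the gene nearest above the limit was Anxa2, at 2.50 and 2.13, and Anxa5 was just outside, at 1.05 in WT and 0.83 in EP2KO. The median change over the 7 genes was 1.23 at 3 h, 2.74 at 9 h and 3.35 at 14 h, against −0.14, −0.08 and −0.06 over all probe sets. The share of the 14 h difference present at 3 h varied among the genes. At 3 h in WT, S100a10 had 99.1% of its 14 h log2 difference, Anxa2 61.9%, Anxa5 61.8%, S100a6 36.8%, Lgals3 34.1% and Anxa1 24.9%. In EP2KO the same shares were 48.1%, 37.0%, 27.5%, 30.3%, 19.9% and 9.88%. Each of the 6 shares was lower in EP2KO, and Anxa5 and S100a6 changed places. For S100a10 the share in WT is high in part because its 14 h signal lay below that of 9 h, where it reached 141.3% of the 14 h difference. The 3 h difference itself was smaller there for all 6 genes, and the 14 h difference was larger for 5 of them, Anxa5 being the exception.

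The genotype comparison asks whether loss of EP2 alters these genes. Over the 4 times together none of the 10 probe sets passed the test. With limma, fitted over all probe sets with time and genotype as terms, 0 of 10 passed an adjusted p of 0.05, as did 0.0% of all probe sets; adjusted p of the 10 ran from 0.972 to 0.995. At an unadjusted p under 0.05 the counts were 0 of 10 and 642 of 12422. By the brightest probe set of each gene, the mean difference of EP2KO from WT ran from −0.06 for Lgals3 to 0.12 for Anxa2 (SE 0.138, 95% interval −0.19 to 0.42), and the dim probe set of Anxa1 stood at 0.35. For S100a10 it was −0.02, with an interval of −0.41 to 0.37, which leaves room for differences of that size in either direction. Differences of opposite sign cancel in such a mean and widen its interval, as for S100a10 at 3 h (−0.72) and 14 h (0.65). The test therefore cannot show a difference that changes sign over time. 

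At 3 h and at 14 h the sign of the difference was shared by all 7 genes, and it was opposite at these times. At 0 h 5 genes were higher and 2 lower in EP2KO, between −0.34 and 0.34. At 3 h all 7 genes were lower in EP2KO, from −0.09 for S100a6 to −0.72 for S100a10, with a median of −0.39. Of all probe sets 44.5% were lower there. The 5 cumulus and granulosa markers that rose at 3 h were lower in EP2KO too, from −0.06 for Inhba to −0.75 for Ptx3. So were all genes named below for a course like that of S100a6, S100a10, Lgals3 or an annexin. Sgk1, for one, read 10.63 in WT and 10.17 in EP2KO, though the 3 h values entered that search. At 9 h 5 genes of the set were lower and 2 higher, between −0.38 and 0.12. At 14 h all 7 were higher in EP2KO, from 0.15 for Anxa5 to 0.74 for Lgals3, with a median of 0.56, and 53.1% of all probe sets were higher. The genes of like course that shared the sign at 3 h did not follow here. All of them but Lgals1 and Tmsb4x were lower in EP2KO at 14 h, where Sgk1 read 13.07 in WT and 12.85 in EP2KO. The 14 h values entered that search too. At least 0.5 above WT at 14 h were 5 of the 7, namely Lgals3, S100a10, S100a4, Anxa2 and S100a6, against 1.17% of all probe sets. All 10 probe sets were below WT at 3 h and above it at 14 h, as were 22.0% of all probe sets and 30.3% of the 577 that stood at least 2-fold above 0 h at 9 or 14 h in both genotypes. This pattern was noticed in the values and rests on 1 array per group, so it has no replicate check. Whether such values weighed in the choice of the genes is not recorded, so nothing is read from the contrast with all probe sets. After median centring of the arrays, or after quantile normalization, all 7 genes kept both signs.

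**Figure D2:**
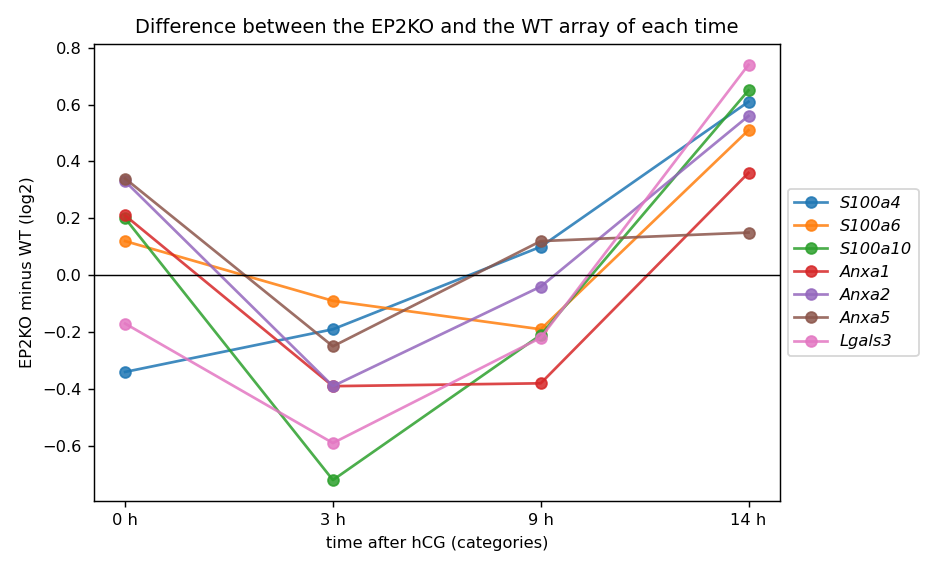
EP2KO minus WT (log2, vertical) at each time after hCG (horizontal, in categories) for the 7 measured genes, 1 pair of arrays per point; the line at 0 marks equal signal. All 7 points lie below 0 at 3 h and above 0 at 14 h.

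Whether the difference at 14 h departs from that at the other 3 times was tested as an interaction of genotype with the ovulated stage in limma. None of the 10 probe sets passed, with adjusted p from 0.128 to 0.990, while 0.0805% of all probe sets did, which is 10. At an unadjusted p under 0.05 stood 7 of the 10, against 865 of 12422 or 6.96%. The 7 include the dimmer probe sets of Anxa1 but not its brightest (limma, unadjusted p = 0.0611). All 10 share the same pair of 14 h arrays and some share a gene, so they are not independent. Nothing is read from this contrast. Lgals3 departed by 1.07 ± 0.224 (SE, adjusted p = 0.218, limma), with EP2KO above WT at 1 of the 4 times. S100a10 stood at 0.89 ± 0.304 (adjusted p = 0.546), S100a4 at 0.75 ± 0.223 (adjusted p = 0.458) and Anxa5 at 0.08 ± 0.245 (adjusted p = 0.990). The smallest adjusted p, 0.128, belonged to the dimmest probe set of Anxa1, at 1.24 ± 0.219. For Lgals3 the 95% interval of the departure ran from 0.57 to 1.57, and for Anxa5 from −0.46 to 0.62.

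Leukocyte markers moved in the same direction at 14 h, and S100a4, S100a6, Anxa1 and Lgals3 are also expressed by myeloid cells. Of 21 leukocyte markers 20 were measured, and 9 rose and 1 fell at 14 h against 0 h, while 13.5% of all probe sets rose and 15.2% fell. Ctss, a lysosomal protease of macrophages, rose by 2.96 (limma, adjusted p = 5.63e-05) and Cd53, a leukocyte tetraspanin, by 1.94 (adjusted p = 6.66e-05). The pan-leukocyte gene Ptprc stood at −0.18 and did not pass. At 9 h 1 leukocyte marker rose, Cd52 by 0.94, and 0 fell, against 10.9% and 12.1% of all probe sets. At that time S100a6, S100a10, Anxa1, Anxa2 and Lgals3 were already above 0 h by 2.31 to 5.12, while Ctss stood at −0.05 and Cd53 at −0.17. The log2 of the summed leukocyte signal lay between 11.61 and 12.05 in the 6 earlier arrays, and reached 12.40 (WT) and 12.88 (EP2KO) at 14 h. In EP2KO 17 of the 20 were higher than in WT at 14 h, with a median of 0.33, where 53.1% of all probe sets were higher. The departure was above 0 for 19 of the 20 and for 54.9% of all probe sets. Only Ctss was called, at 1.5 (limma, adjusted p = 0.0359). That call ended after median centring and without any 1 of the 6 earlier arrays. Leaving out the lowest 40% of probe sets removed this probe set itself, so that setting did not test it again. At 3 h 9 of the 20 were higher in EP2KO, with a median of −0.015, where 53.5% of all probe sets were higher. The part of leukocyte RNA in the 14 h difference of the set was not tested, and in bulk RNA more cells of a type and more RNA per cell cannot be told apart.

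Oviduct epithelium is another possible companion of cells taken from the ampulla. Of its 16 markers 15 were measured, 4 rose at 14 h against 0 h and 1 fell, where 13.5% of all probe sets rose and 15.2% fell. Ovgp1, the oviduct glycoprotein, read 7.05 to 7.76 in the earlier arrays and 11.13 and 11.46 at 14 h, and it rose by 3.65 (limma, adjusted p = 1.63e-07). The defining epithelial genes Epcam and Cdh1 stood at 0.36 and −0.01 and did not pass. Krt18, a simple epithelial keratin, departed at 14 h by 1.76 (limma, adjusted p = 0.0357). That call ended in the same settings as that of Ctss, and the filter on dim probe sets removed this probe set too. The dimmer probe sets of Krt18, Krt19, Cd68, Lyz2 and Ptprc did not pass at 14 h, while those of Ovgp1 and Laptm5 rose, by 2.76 and 0.78. At 9 h no marker of the list rose and 1 fell. The log2 of the summed list signal lay between 11.84 and 11.99 on the earlier arrays and reached 12.62 (WT) and 12.86 (EP2KO) at 14 h, and its part in the 14 h values of the set was not tested. Of 13 theca and stroma markers and 9 oocyte markers 0 rose at 9 or 14 h. At 3 h 8 of the 9 oocyte markers were higher in EP2KO than in WT, with a median of 0.39. So were 8 of the 13 theca and stroma markers, with a median of 0.11, and 53.5% of all probe sets. At 14 h the counts were 9 of 9 oocyte markers, with a median of 0.10, and 6 of 13 theca and stroma markers, with a median of 0. Of all probe sets 53.1% were higher there. Of 9 endothelium markers 2 rose at 9 h and 1 at 14 h, where 10.9% and 13.5% of all probe sets rose. Of 4 erythroid markers 2 rose at 9 h and 1 at 14 h. The log2 of their summed signal was 10.58 at 0 h, 12.50 at 3 h and 13.61 at 9 h in WT. In EP2KO it was 10.89, 11.45 and 11.36. At 9 h 5 of the 7 genes of the set were lower in EP2KO, Anxa1 by −0.38, Lgals3 by −0.22, S100a10 by −0.21, S100a6 by −0.19 and Anxa2 by −0.04. The part of these cells in the values of the set was not tested.

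**Figure D3:**
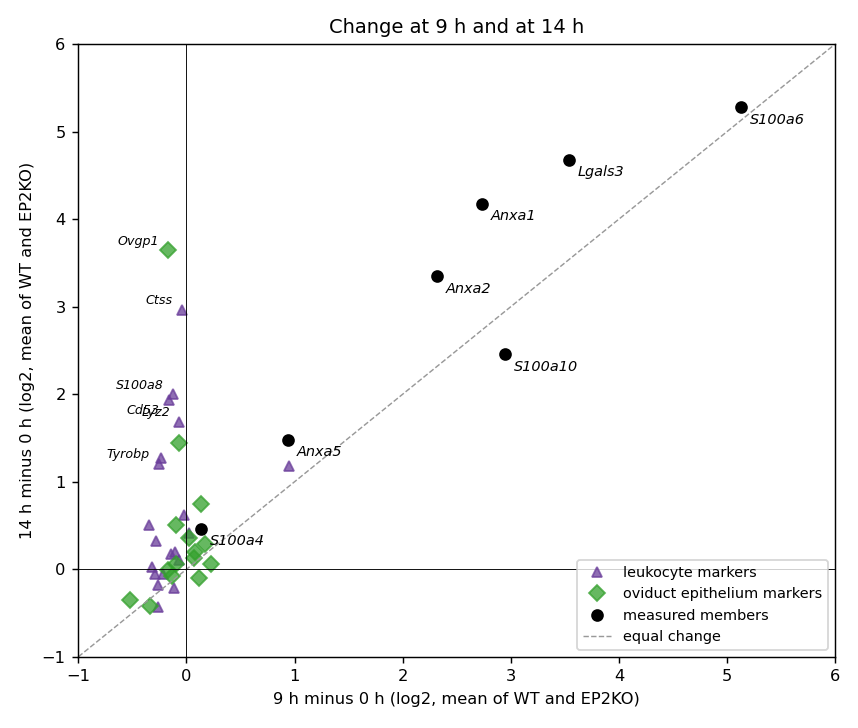
Change from 0 h at 9 h (horizontal) and at 14 h (vertical), each the mean of WT and EP2KO in log2 units, for the 7 measured genes (circles), leukocyte markers (triangles) and oviduct epithelium markers (diamonds); the dashed line marks equal change. S100a6, S100a10, Anxa1, Anxa2 and Lgals3 lie between 2.31 and 5.12 at 9 h, where Ctss (−0.05), Cd53 (−0.17) and Ovgp1 (−0.17) lie near 0. The leukocyte marker Cd52, which is not labelled, lies at 0.945 at 9 h and 1.185 at 14 h.

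Among the other measured S100, annexin and galectin genes, each by its brightest probe set, 1 rose at 9 h, Lgals1. Of 10 other S100 genes measured, 0 rose and 2 fell at 3 h, where 17.4% of all probe sets rose and 25.4% fell, 0 rose and 1 fell at 9 h, and 3 rose and 0 fell at 14 h. Those 3 were S100a8 and S100a9, the subunits of calprotectin in neutrophils and monocytes, and S100a1. S100a8 read 6.30 to 6.78 in the 6 earlier arrays, then 8.16 in WT and 9.24 in EP2KO, a rise of 2.0 ± 0.261 (SE, over 2 arrays at each time, with adjusted p = 2.44e-04 in limma). S100a9 rose by 1.27. S100a1 rose by 1.12 in the brightest of its 3 probe sets, while the other 2 stood at 0.005 and 0.10 and did not pass. S100a13 is counted by its brightest probe set, at 0.34 and not called, while 2 of its other 3 rose, by 1.14 and 0.70 at 9 h (limma, adjusted p = 2.55e-04 and 0.00326) and by 0.90 and 0.84 at 14 h. S100a14 and S100b fell at 3 h, by 0.56 and 0.52, and each call ended without the WT 0 h or the WT 3 h array (adjusted p up to 0.163). S100b also fell at 9 h, and that call ended without the WT 0 h, WT 9 h or EP2KO 9 h array (up to 0.136). Both calprotectin genes are in the leukocyte list, and both stood near 0 h at 9 h, at −0.13 and −0.24, unlike S100a6.

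The S100 genes of the first cluster lie side by side on chromosome 3 in the RefSeq order S100a1, S100a13, S100a14, S100a16, S100a3, S100a2, S100a4, S100a5, S100a6, S100a7a, S100a8 and S100a9, and S100a11 and S100a10 stand next to each other further along. Along that row the 14 h difference from 0 h in WT was 1.1, 0.20, −0.05, −0.04 and 0.11 from S100a1 to S100a3, −0.01 in S100a4, 0.06 in S100a5, 5.08 in S100a6, 1.38 in S100a8 and 0.79 in S100a9. In EP2KO it was 0.94 in S100a4, 0.16 in S100a5, 5.47 in S100a6, 2.62 in S100a8 and 1.75 in S100a9, and between 0.48 in S100a13 and −0.03 in S100a16 over S100a13, S100a14, S100a16 and S100a3. These are values of the brightest probe sets, and S100a13 rose by others as given above. S100a2 and S100a7a were not measured here.

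Of 6 other annexins measured, 0 rose and 2 fell at 3 h and at 9 h, and 2 rose and 0 fell at 14 h. Of all probe sets 25.4% fell at 3 h and 12.1% at 9 h, and 13.5% rose at 14 h. Anxa4 fell by 0.50 at 9 h, as Anxa3 did by 0.69, and then stood 0.60 above 0 h at 14 h, where it rose (limma, adjusted p = 0.00278). Anxa6 rose by 0.58 at 14 h (adjusted p = 0.0167). The Anxa6 call at 14 h ended without the WT 0 h, EP2KO 0 h or EP2KO 14 h array, with adjusted p up to 0.185. The Anxa4 call at 9 h ended without the WT 0 h, WT 9 h or EP2KO 9 h array (up to 0.138). The Anxa3 call ended without the WT 9 h, EP2KO 0 h or EP2KO 9 h array (up to 0.194), and the Anxa6 fall at 3 h without any 1 of the 0 h and 3 h arrays. Anxa7 did not pass by its brighter probe set, at 0.10 at 14 h, while the dimmer one fell by 0.71.

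Of 7 other galectins, only Lgals1 rose, at 3, 9 and 14 h, while 3 fell at 3 h, 1 at 9 h and 0 at 14 h. At these times 17.4%, 10.9% and 13.5% of all probe sets rose, and 25.4%, 12.1% and 15.2% fell. Lgals1, galectin 1, which binds the same kind of sugars as galectin 3, gave 8.98, 10.77, 12.09 and 11.62 on the WT arrays and 9.42, 10.29, 12.06 and 11.92 on those of EP2KO. It rose by 2.88 ± 0.192 at 9 h (SE, with adjusted p = 7.61e-06 in limma) and by 2.57 at 14 h. Like the set it was lower in EP2KO at 3 h, by −0.48, and higher at 14 h, by 0.30. The falls of Lgals2, Lgals4 and Lgals9 at 3 h were between −0.40 and −0.50, and each ended when 1 of several arrays was left out, among them WT 0 h and WT 3 h (adjusted p up to 0.143). Lgals2 also fell at 9 h, by 0.43, a call that ended without the WT 0 h, WT 9 h or EP2KO 9 h array (up to 0.202).

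Of 12 measured binding partners and receptors, 3 rose and 1 fell at 3 h, 5 rose and 0 fell at 9 h (Ahnak, Pla2g4a, Sugt1, Cacybp and Myh9), and 3 rose and 0 fell at 14 h. Of all probe sets 17.4% rose and 25.4% fell at 3 h, 10.9% and 12.1% at 9 h, and 13.5% and 15.2% at 14 h. The 9 h call of Cacybp, at 0.64, ended without the WT 0 h or EP2KO 9 h array (limma, adjusted p up to 0.223). Ahnak, the giant scaffold that the annexin A2 and S100A10 complex holds at the membrane, gave 8.46, 8.92, 10.60 and 11.13 on the WT arrays and 8.52, 8.84, 10.12 and 11.85 on those of EP2KO. It rose by 1.87 at 9 h and by 3.0 ± 0.221 at 14 h (SE, with adjusted p = 5.26e-06 in limma). Plat, tissue plasminogen activator, whose work the same complex speeds up, stood at 0.16 at 9 h and rose by 2.02 at 14 h (adjusted p = 2.34e-04), and Plg, its substrate, stood at 0.04. Myh9, the myosin bound by S100A4, rose by 1.07 at 14 h; its rise of 0.44 at 9 h ended without any 1 of 5 arrays (adjusted p up to 0.480), though its other probe set stood 1.42 above 0 h there. The potassium channel gene Kcnk3, whose protein S100A10 carries to the membrane, fell by 0.45 at 3 h, a call that ended without any 1 of 5 arrays (up to 0.489).

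Other partners turned back by 14 h. Cacybp, the calcyclin-binding protein, rose by 1.09 at 3 h and fell by 1.0 from 9 to 14 h, and Sugt1, a co-chaperone that also binds S100A6, rose by 1.03 at 3 h and fell by 0.93 from 9 to 14 h. Pla2g4a, the phospholipase restrained by annexin A1 and S100A10, rose by 1.59 at 9 h (limma, adjusted p = 2.12e-04) and fell by 1.35 from 9 to 14 h (adjusted p = 4.71e-04). From 9 to 14 h 8 genes of the 4 lists of related genes rose and 3 fell, while 1247 of 12422 probe sets rose and 1249, or 10.1%, fell. The receptors Ager, for extracellular S100 proteins, and Fpr2, for annexin A1, stood at 0.20 and 0.23 at 14 h and did not pass.

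**Figure D4:**
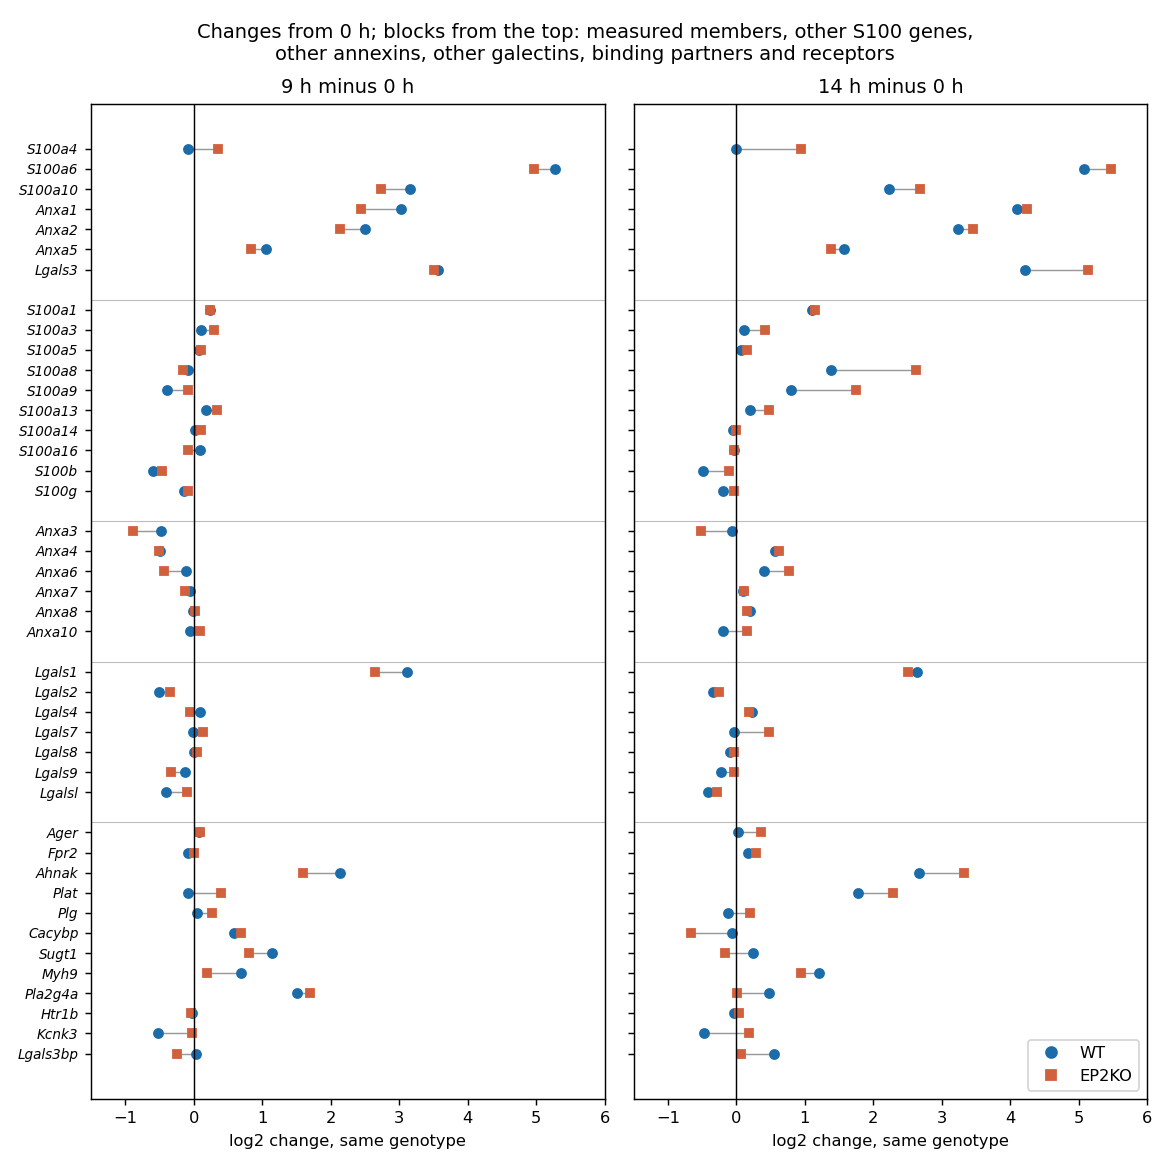
Log2 change from the 0 h array of the same genotype at 9 h (left) and 14 h (right) in WT (circles) and EP2KO (squares), 1 array per point, for the 7 measured genes and the genes of 4 lists of related genes. Lgals1 and Ahnak lie among the measured genes of the set, and S100a8 and S100a9 lie near 0 at 9 h and above it at 14 h.

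The genes with the most similar course were sought by the root mean square of the log2 gap to each member's change from 0 h, over the 6 arrays with hCG and 8244 genes outside the set. S100a10 was matched most closely by Lgals1 (gap 0.31), Tmsb4x, an actin-binding peptide (0.35), and Sdc1, a cell surface proteoglycan (0.37), with 8 genes within 0.5. Anxa2 was nearest to Me1, a malic enzyme (0.36), Sfrp4, a WNT antagonist (0.42), and Tmsb4x (0.44). Anxa1 was nearest to Pcyt1a, an enzyme of phosphatidylcholine synthesis (0.36), Col4a1, a basement membrane collagen (0.48), and Cav1, the coat protein of caveolae (0.60).

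S100a6 and Lgals3 had no close match outside the set. The nearest such gene to both was Sgk1, a kinase of salt transport, at gaps of 1.36 and 0.70, followed for S100a6 by Alcam, a cell adhesion molecule (1.38), and Pcsk5, a proprotein convertase (1.47), and for Lgals3 by Pcsk5 (0.83) and Lox, which crosslinks collagen (0.83). No gene outside the set lay within 0.5 of either, and within it S100a6 was nearest to Lgals3, at 1.04. For Anxa5, 262 genes lay that close, led by Acot9 (0.14), Cdc42se1 (0.14) and Sgpl1 (0.15), and for S100a4 3646 genes, led by Zfp503 and Lst1 (0.17 each) and Nfatc1 (0.18). Within the set the closest pair was S100a10 and Anxa2, with a gap of 0.64, followed by Anxa1 and Lgals3 at 0.68.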

How the data were processed

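Per the labels' protocols, each array received RNA amplified in 2 rounds from 100 ng. The authors deposited log2 values, made with RMA per the submitters' processing notes; its version is not stated there. They were used unscaled. Leaving out 66 array controls left 12422 probe sets, all tested, dim ones included.

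Gene symbols came from the platform annotation; 10833 probe sets carry 1 symbol. A gene with several probe sets is represented by the one with the highest mean. Tests used limma 3.58.1 in R 4.3.3 with time and genotype as terms, or with the interaction of genotype with 14 h added, two-sided, with Benjamini-Hochberg adjustment over all probe sets and a threshold of 0.05. They leave 3 and 2 residual degrees of freedom. The fits were tested on simulated data. Since there is 1 array per group, p-values measure the spread among single arrays, which may be technical. A genotype difference in the response to hCG enters the residual of the time contrasts and of the genotype contrast over all times.

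Named genes were all members, the 3 genes closest to each member in course, and the lists of related genes and markers. The members, lists and motifs were chosen with earlier results of these data known. Which values chose the members is not recorded, so the time course was taken as used. Alternatives were median centring, quantile normalization, a filter on the lowest 40% of probe sets, an intensity trend in the prior, leaving out each array, leaving out the 14 h pair, averaging the probe sets of a gene, and another 0 h reference.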

Additional observations from a re-analysis of the deposited data

Results flagged for a closer look

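Differences over time in S100a4 and S100a6 had opposite signs in the 2 genotypes, though for S100a4 those of WT were close to 0, and with 1 array per group this was not tested for the single contrasts. From 0 to 9 h S100a4 stood at −0.09 in WT and 0.35 in EP2KO, and from 0 to 14 h at −0.01 in WT and 0.94 in EP2KO. From 9 to 14 h S100a6 stood at −0.20 in WT and 0.50 in EP2KO. The departure of the genotype difference at 14 h from the 3 earlier times, which is a related test, did not pass for either gene (limma, adjusted p = 0.458 for S100a4 and 0.610 for S100a6).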

How the results depend on the processing

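No pairing of animals was possible because the labels give no replicate numbers and each group has 1 array. The time terms of the fits compare WT and EP2KO within each time. Depth does not apply to arrays, whose number limits the precision. The count of genes at least 2-fold above 0 h stayed at 5 at 9 h and at 6 at 14 h under median centring, quantile normalization, averaged probe sets and the shared 0 h reference. At 3 h it stayed at 4 under the first 2 of these settings and was 3 under the last 2. Averaging the 2 probe sets of S100a10 lowered its change from 1.75 to 0.665 at 3 h and from 2.94 to 1.52 at 9 h. Averaging those of Anxa1 lowered its 14 h change from 4.17 to 3.40. Of the 21 genes named for a similar course, 19 stayed with the lowest 40% of probe sets left out and 21 after median centring.

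The count of probe sets called for genotype was 1 without the 14 h pair and 0 to 1 with single arrays left out. Without the 14 h pair the difference was −0.14 for S100a4, −0.053 for S100a6 and −0.033 for Anxa2, which turned its sign, and S100a10 stood at 0.037 after quantile normalization; none passed. As each time has its own term, leaving out 1 array takes the whole pair of its time out of the genotype and departure contrasts. Leaving out either array of a time thus gave the same difference. With single arrays left out the genotype difference ran from −0.14 to 0.17 for S100a4, −0.053 to 0.18 for S100a6 and −0.24 to 0.21 for S100a10. It ran from −0.19 to 0.063 for Anxa1, −0.033 to 0.28 for Anxa2 and −0.33 to 0.12 for Lgals3.

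The 10 departures at 14 h fell to 0 after median centring, to 0 with the lowest 40% left out and to 0 with any earlier array left out; the cause was not tested. The filter removed the called probe sets of Ctss and Krt18 themselves, so it did not test these again. The departure of Anxa5 ran from −0.08 to 0.22 with single arrays left out. Of the related genes, 8 fell at 3 h, 5 after median centring, which ended those of Anxa6, Lgals9 and Kcnk3, and 1 to 9 with single arrays left out. At 9 h 4 fell, and 0 to 4 with single arrays left out. At 14 h 0 fell (limma), and 0 to 1 with single arrays left out. From 9 to 14 h 8 rose, and 5 to 9 with single arrays left out.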
